A study of Mus musculus with 12 samples.

Results

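The lysosome, the proton pump that acidifies it and the autophagy machinery that feeds it were followed in whole-heart RNA through 44 genes. The list was drawn up by function, with 16 genes of the vacuolar ATPase (V-ATPase), 5 lysosomal membrane proteins, 9 cathepsins, 8 further lysosomal enzymes and soluble proteins, 2 transcription factors, 3 autophagy genes and Lyst. All 44 were found among the 53700 gene identifiers of the count table, and all 44 were among the 17847 genes with enough counts to be tested.

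The hearts came from 6 ac-WT and 6 ac-CYB5R3–KO male mice. Both groups were heterozygous for Myh6-CreERT2, a Cre recombinase that a cardiomyocyte promoter drives and that tamoxifen activates, and both received tamoxifen. The groups differed in Cyb5r3, which was wild-type on both alleles in ac-WT mice (WT/WT) and floxed on both in ac-CYB5R3–KO mice (fl/fl). The dose was 33 mg/kg/d for 5 days, begun at 10 to 13 weeks of age, and hearts were taken 5 days after treatment. The mice were of a mixed FVB and B6 background that had been backcrossed to C57BL/6J. Cre removed Cyb5r3 from cardiomyocytes, while the RNA came from every cell type of the heart.

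Lysosomes break down proteins, lipids and sugars with hydrolases that work at acid pH, and the V-ATPase supplies that acid by pumping protons with its membrane sector V0, turned by the ATP-splitting sector V1. TFEB and TFE3 are transcription factors that drive lysosomal and autophagy genes together through a short promoter element, the E-box CACGTG and its extended forms, and mTORC1 kinase on the lysosomal surface keeps them out of the nucleus in fed cells. In the heart, where cardiomyocytes are rarely replaced, autophagy clears worn mitochondria and protein aggregates, and inherited loss of LAMP2 or of the enzyme encoded by Gaa causes cardiomyopathy.

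Reads on genes numbered 43393183 to 53754284 per ac-WT library and 43933454 to 51653683 per ac-CYB5R3–KO library. The smallest count of any of the 44 genes in any heart was 60 reads, for Gla, so precision was limited by the spread between mice more than by counting error. Cyb5r3 itself was at 81.9 to 185 CPM (median 121) in ac-WT hearts and at 42.0 to 67.4 CPM (median 52.7) in ac-CYB5R3–KO hearts, with no overlap. The log2 ratio of Cyb5r3 between the groups was -1.22 (SE 0.19, adjusted p = 0.0450 by edgeR). CPM are counts relative to the library total after scaling by edgeR's TMM factors. Those factors were 0.570 in ac-WT mouse 2 and 0.723 in ac-WT mouse 3, up to 1.13 in the other ac-WT mice, and 1.04 to 1.22 in ac-CYB5R3–KO mice. Mitochondrial genes held 35.3% and 34.8% of the counts in ac-WT mice 2 and 3. They held 24.8% to 30.1% in the other ac-WT mice and 24.0% to 28.3% in ac-CYB5R3–KO mice. Because ac-WT mice 2 and 3 stood apart, the counts of members and the genes that moved most are also given without them.

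No member passed an adjusted p of 0.05 in edgeR's quasi-likelihood test, which called 18 of 17847 genes (0.101%). The lowest adjusted p of a member was 0.188, for Lyst. At an unadjusted p under 0.05, the threshold used from here on for calling a member higher or lower, 6 members (13.6%) were higher in ac-CYB5R3–KO hearts, beside 4.91% of all genes tested. These were Lyst, Atp6ap1, Gabarapl1, Atp6v1h, Sqstm1 and Mcoln1. At the same threshold 3 members (6.82%) were lower, beside 9.73% of all genes, and these were Atp6v1g1, Tfeb and Ctsf. The other 35 passed in neither direction. Over the 44 members, 32 fold changes were above 0 and 12 below, with a median of 0.08 on the log2 scale and a range from -0.44 to 0.55, whereas the median over all genes tested was -0.01. In bulk RNA of this kind, fewer cells of a type and less RNA per cell cannot be told apart.

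**Figure D1:**
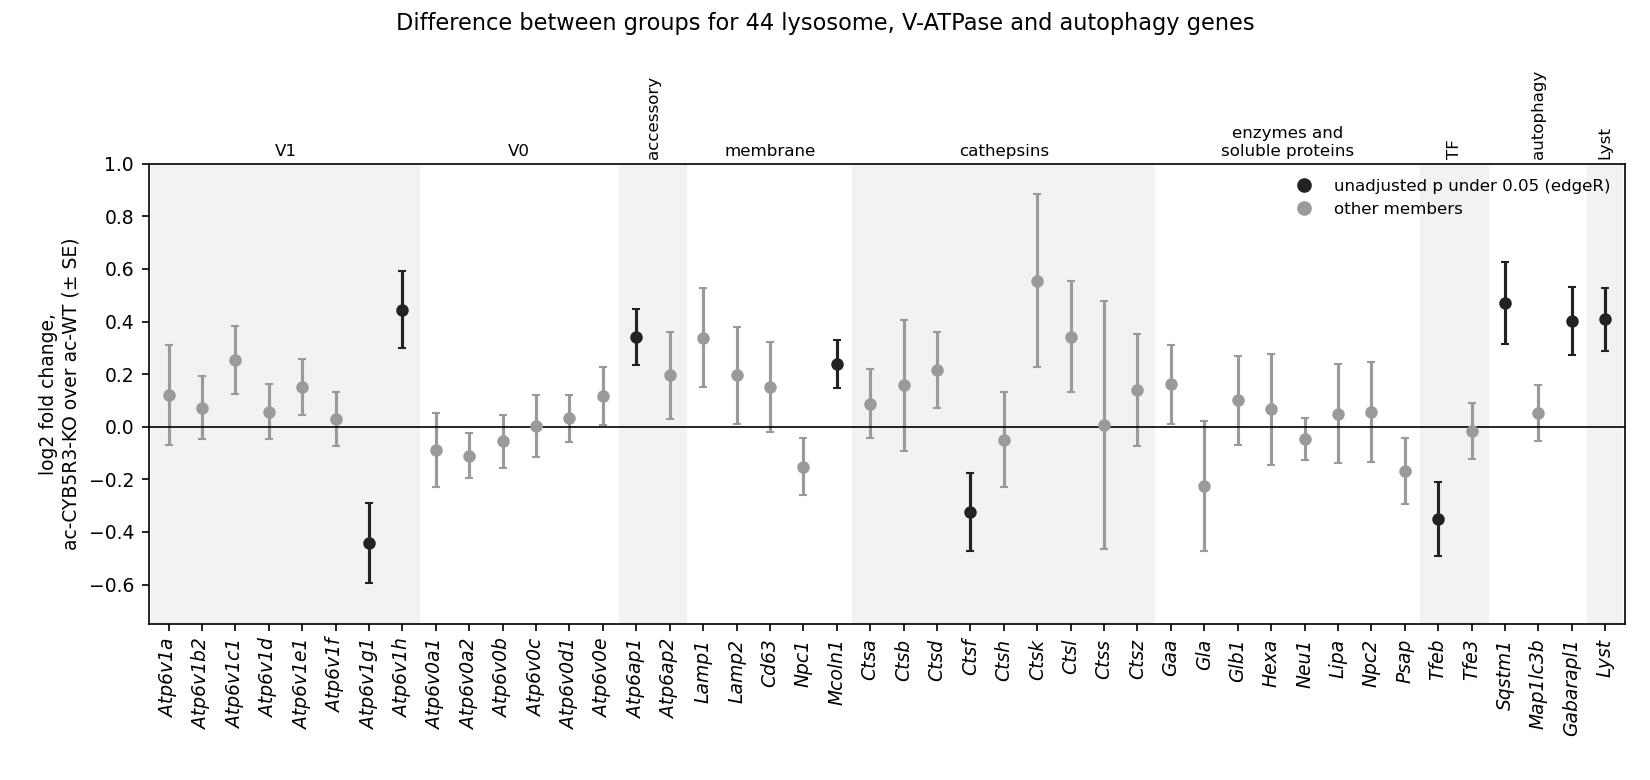
The log2 fold change of each of the 44 genes (ac-CYB5R3–KO over ac-WT, vertical axis, with its SE) is drawn by functional group, and black points have an unadjusted p under 0.05. The 6 black points above 0 lie between 0.24 and 0.47 and the 3 below 0 between -0.44 and -0.32, and the grey point with the widest bar, Ctss, has an SE of 0.47.

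Without ac-WT mice 2 and 3, 6 of the 44 members were higher, beside 3.44% of all 18299 genes then tested. They were the same 6 as over all 12 mice. The 2 fits share every other mouse, so this is not independent support for those 6. Their log2 fold changes were then 0.30 for Lyst, 0.29 for Atp6ap1, 0.34 for Gabarapl1, 0.30 for Atp6v1h, 0.32 for Sqstm1 and 0.26 for Mcoln1, smaller than over all 12 mice for each but Mcoln1. None of the 3 lower members kept an unadjusted p under 0.05, with log2 fold changes of -0.22 for Atp6v1g1, -0.12 for Tfeb and -0.20 for Ctsf. The only member then lower was Gla, at -0.47, beside 4.54% of all genes. The median fold change of the 44 members was 0.003 without these mice, and 23 of the 44 were above 0. Of the 44 fold changes, 15 changed sign, 12 of them from above to below 0. Whether the loss of the lower calls and the keeping of the higher ones differ was not tested. With 1 surrogate variable added to the model the median was -0.04 and 17 were above 0. Scaling by total counts alone put 40 members above 0 and the median at 0.31, but it also moved the median over all genes to 0.26, and 82.1% of all genes with an unadjusted p under 0.05 were then higher, in place of 33.6%. Leaving out 1 mouse at a time, the number of lower members was 1 without ac-WT mouse 2, ac-WT mouse 3, or ac-CYB5R3–KO mouse 1, 3 or 4. In those fits 6.17% to 8.16% of all genes were lower. Without any of the others the number was 2 or 3, beside 8.24% to 11.6% of all genes. The number of higher members ran from 6 to 8, beside 3.75% to 7.08% of all genes.

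Many members, though not most, were at their lowest ac-WT level in mice 2 and 3. These mice were the lowest pair of the 6 ac-WT hearts in 20 of the 44 members (45.5%), beside 21.1% of all genes tested, and the highest pair in 3 members (6.82%), beside 18.3%. Those 3 were Atp6v1g1, Neu1 and Tfeb. Single hearts of this pair also held the highest ac-WT value of other V-ATPase genes, such as Atp6v0c (193 CPM in mouse 2) and Atp6v0a1 (63.1 CPM in mouse 3). The summed CPM of 12 macrophage markers was 490 and 510 in these mice, 725 in ac-WT mouse 1 and 1692 to 1832 in ac-WT mice 4 to 6, while ac-CYB5R3–KO hearts ran from 806 to 1331. Against ac-WT, 1 of these 12 markers was lower and 0 higher, and none was at 0 in every heart. Leaving out mice 2 and 3 keeps ac-WT mice 4 to 6, whose macrophage sums lie above every ac-CYB5R3–KO heart. The groups of that fit therefore still differ in these markers. The 10 fibroblast markers summed to 2237 and 2157 CPM in ac-WT mice 2 and 3, 4793 to 7686 in the other ac-WT mice and 4199 to 6207 in ac-CYB5R3–KO mice, with 1 marker lower and 0 higher. The 12 cardiomyocyte markers went the other way, at 59276 and 47496 CPM in ac-WT mice 2 and 3, 25977 to 30373 in the other ac-WT mice and 19502 to 32444 in ac-CYB5R3–KO mice, with 4 of 12 lower and 0 higher. Of the blood markers, 3 of 5 tested for red blood cells were higher and 0 lower (222 to 4487 CPM in ac-WT and 1323 to 12228 CPM in ac-CYB5R3–KO mice, summed) and 2 of 7 tested for lymphocytes were higher and 0 lower (1.75 to 3.84 and 3.76 to 4.81 CPM, summed). Smooth muscle and pericyte markers were mixed, with 2 of 8 higher and 3 lower, and 0 of 8 endothelial markers passed in either direction. The part of these cell types in the members' values was not tested.

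**Figure D2:**
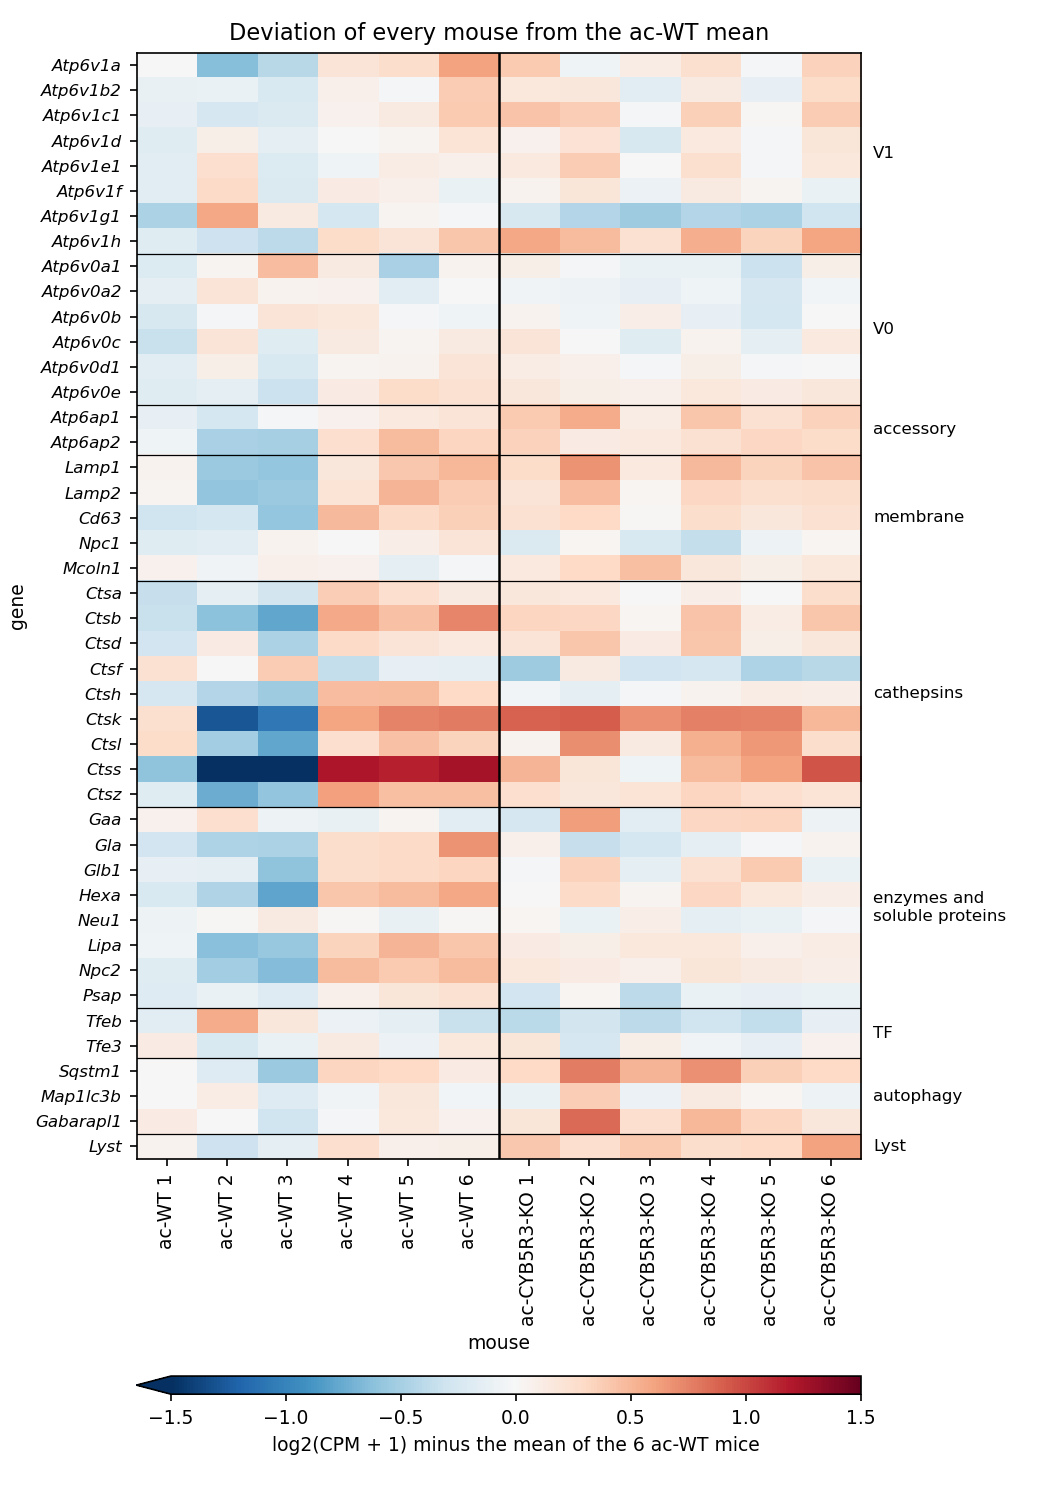
Each square is 1 gene in 1 mouse, coloured by its log2(CPM + 1) minus the mean of the 6 ac-WT mice, with genes in rows by functional group and mice in columns. Blue columns for ac-WT mice 2 and 3 run through many of the cathepsins, membrane proteins and enzymes, and Ctss spans most of the scale, from -1.53 in ac-WT mouse 2 to 1.25 in ac-WT mouse 6.

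Promoter sequence was examined because TFEB and TFE3 act through the E-box. RefSeq promoter windows on GRCm38.p6, from 250 bases before to 50 bases after the start site, were at hand for 36 of the 44 members. CACGTG, which reads the same on both strands, was in the window of 13 of 36 members (36.1%), beside 2187 of 27025 genes (8.09%). Those 27025 are all genes with a window, whether or not they were tested in these hearts, whereas every member was tested. The longer palindrome TCACGTGA was in 7 (19.4%, beside 1.12% of all genes), and GTCACGTG, searched on both strands and overlapping the other forms, was in 8 (22.2%, beside 2.55%). Of 125 further genes of these pathways, which are described at the end, 104 had a window and 19 of them (18.3%) held CACGTG. Stretches are printed for the called members with the motif (Mcoln1 and Ctsf), for Lamp1, which held the most copies, and for Ctsd, Atp6v1a and Atp6v0b as a soluble enzyme and subunits of both pump sectors. Capitals mark each CACGTG, and every stretch is written 5′ to 3′ on the strand of its gene.
Lamp1, chr8:13159090-13159160, plus strand: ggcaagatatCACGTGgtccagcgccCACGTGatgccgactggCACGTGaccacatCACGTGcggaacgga
Mcoln1, chr8:3500438-3500489, plus strand: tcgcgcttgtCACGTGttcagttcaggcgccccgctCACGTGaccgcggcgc
Ctsd, chr7:142387910-142387935, minus strand: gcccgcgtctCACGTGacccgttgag
Ctsf, chr19:4855076-4855101, plus strand: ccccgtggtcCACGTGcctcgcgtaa
Atp6v1a, chr16:44139375-44139400, minus strand: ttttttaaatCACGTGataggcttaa
Atp6v0b, chr4:117887332-117887375, minus strand: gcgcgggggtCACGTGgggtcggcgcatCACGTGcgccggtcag

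The Lamp1 stretch holds 4 copies that begin at positions -61, -45, -28 and -15 from the start site, and the Mcoln1 stretch holds copies at -71 and -45. The Ctsd stretch covers the copy at -98, and a further copy of that window begins at -245. Among the 13 members with CACGTG, 1 was higher (Mcoln1) and 1 lower (Ctsf), and 10 fold changes were above 0, with a median of 0.12. Among the 23 members whose window lacked it, 4 were higher and 1 lower, and 18 were above 0, with a median of 0.06. The other 8 members had no window in the table. A match shows only that these letters are present.

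**Figure D3:**
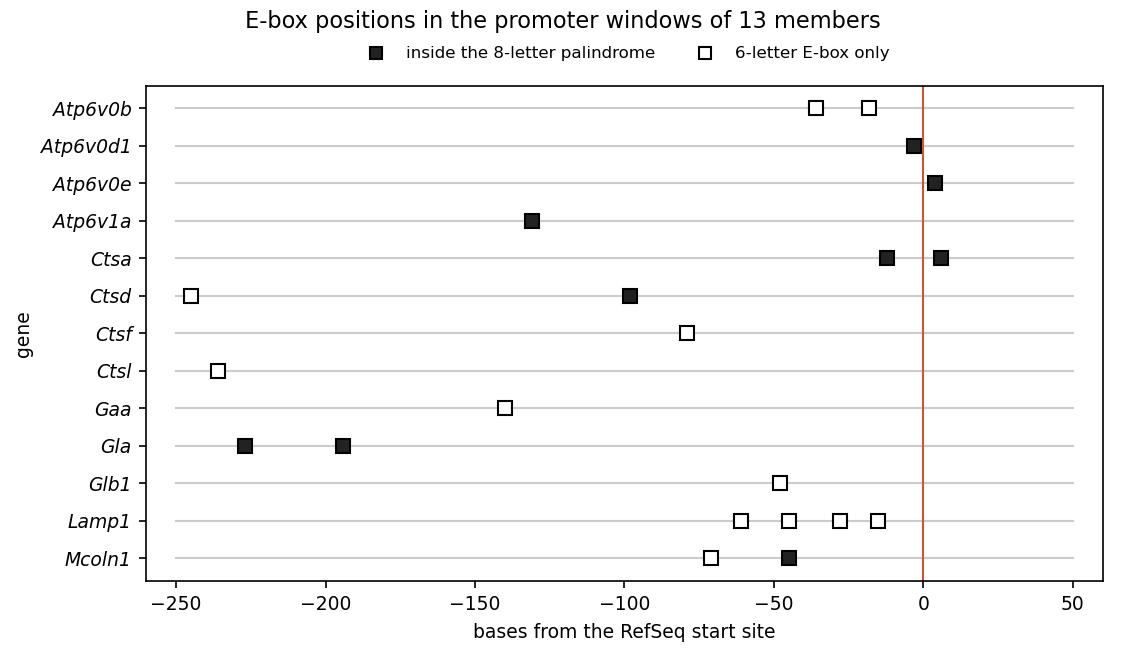
Squares mark where each 6-letter E-box begins, in bases from the RefSeq start site (horizontal axis, 0 at the red line), in the promoter windows of the 13 members that hold one. Filled squares lie inside the 8-letter palindrome, and the 4 copies of Lamp1 lie between -61 and -15.

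The V1 sector, which splits ATP on the cytosolic face, was represented by 8 subunits, of which 7 had fold changes above 0 (median 0.10). Subunit H, which couples the sectors and helps silence the pump when they part, is encoded by Atp6v1h (chromosome 1, 5073254 to 5152630, plus strand, in NCBIM37, the mm9 assembly used for all gene positions here). In ac-WT hearts Atp6v1h ran from 19.0 to 33.8 CPM (median 25.5), and in ac-CYB5R3–KO hearts it ran from 29.7 to 38.3 CPM (median 36.2). The ranges overlapped only through ac-WT mice 4 and 6, at 30.5 and 33.8 CPM, and ac-WT mice 2 and 3 were lowest, at 20.1 and 19.0 CPM. Its log2 fold change was 0.45 (SE 0.15, edgeR p = 0.00909, adjusted p = 0.212), with p = 0.0130 in a two-sided exact permutation test. With 1 surrogate variable in the model the fold change of Atp6v1h was 0.20, and its unadjusted p was no longer under 0.05.

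Atp6v1g1 (chromosome 4, 63205806 to 63211784, plus strand) encodes a subunit of the pump's outer stalk and moved in the opposite direction to Atp6v1h. Its values were 90.2 to 190 CPM (median 127) in ac-WT hearts and 87.2 to 106 CPM (median 92.9) in ac-CYB5R3–KO hearts. Its highest value was that of ac-WT mouse 2 and the next that of ac-WT mouse 3 (139 CPM), and ac-WT mice 1 and 4, at 90.2 and 105 CPM, lay inside the ac-CYB5R3–KO range. On the log2 scale Atp6v1g1 differed by -0.44 (SE 0.15, edgeR p = 0.0118, adjusted p = 0.224, exact permutation p = 0.0281). The difference was -0.12 when libraries were scaled by total counts alone and -0.22 without both ac-WT mice 2 and 3, and in neither case was the unadjusted p under 0.05.

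The other 6 V1 subunits had log2 fold changes between 0.03 (Atp6v1f) and 0.25 (Atp6v1c1), and none passed the threshold. Atp6v1c1, the subunit that joins the stalks to the membrane sector, came nearest, with 27.6 to 43.8 CPM in ac-WT and 32.7 to 44.7 CPM in ac-CYB5R3–KO hearts and an exact permutation p of 0.0866. Atp6v1a, the catalytic subunit, was at 12.5 to 30.8 CPM (median 21.5) in ac-WT hearts and 19.1 to 26.6 CPM (median 22.7) in ac-CYB5R3–KO hearts. The ac-CYB5R3–KO range of Atp6v1a lay inside the ac-WT range. Its log2 fold change was 0.12 (SE 0.19, edgeR adjusted p = 0.783, exact permutation p = 0.426), and it was -0.09 without ac-WT mice 2 and 3. Atp6v1b2, the nucleotide-binding partner of Atp6v1a, differed by 0.07 (SE 0.12), and the rotor and stalk subunits Atp6v1d and Atp6v1e1 by 0.06 (SE 0.10) and 0.15 (SE 0.11).

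The V0 sector, which carries protons through the membrane, gave 6 members with 3 fold changes above 0 and 3 below, and 0 passed the threshold in either direction (median -0.03). Their log2 fold changes ran from -0.11 (Atp6v0a2, SE 0.09) to 0.12 (Atp6v0e, SE 0.11). Atp6v0c, which encodes the proteolipid of the proton-carrying ring, was at 133 to 193 CPM (median 179) in ac-WT and 148 to 192 CPM (median 171) in ac-CYB5R3–KO hearts. The 2 ranges of Atp6v0c almost coincided, and its log2 fold change was 0.004 (SE 0.12, edgeR adjusted p = 0.992, exact permutation p = 0.898). Atp6v0a1, whose product holds the proton half-channels, was at 32.2 to 63.1 CPM in ac-WT and 36.3 to 48.4 CPM in ac-CYB5R3–KO hearts (log2 fold change -0.09, SE 0.14).

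Of the accessory proteins, Atp6ap1 (chromosome X, 71542436 to 71550060, plus strand), which helps assemble and sort the pump, was higher. It was at 68.2 to 93.5 CPM (median 83.3) in ac-WT hearts and at 88.3 to 120 CPM (median 106) in ac-CYB5R3–KO hearts. Only ac-CYB5R3–KO mouse 3, at 88.3 CPM, fell below the highest ac-WT mice, which were mice 5 and 6 at 90.6 and 93.5 CPM. Atp6ap1 differed by 0.34 on the log2 scale (SE 0.11, edgeR p = 0.00653, adjusted p = 0.200, exact permutation p = 0.00866). Its unadjusted p stayed under 0.05 in all 21 alternatives to this fit. Atp6ap2, the other accessory protein and also known as the prorenin receptor, ran from 21.1 to 42.6 CPM and from 33.1 to 38.7 CPM in the same order of groups (log2 fold change 0.20, SE 0.17, edgeR adjusted p = 0.590, exact permutation p = 0.236). The fold change of Atp6ap2 was -0.005 without ac-WT mice 2 and 3.

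Compared per length, as CPM divided by kilobases of exon (RPKM), the V-ATPase genes spanned a wide range of levels. In ac-WT hearts mean RPKM was lowest for Atp6v1a (3.45) and Atp6v0a2 (3.89) and highest for Atp6v1g1 (114), with Atp6v0c (50.1) and Atp6v1e1 (49.2) next. In ac-CYB5R3–KO hearts the same genes were at 3.76, 3.61, 84.0, 50.2 and 54.6 RPKM. These levels rest on the summed length of all annotated exons, so a gene with long, seldom-used exons comes out low.

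**Figure D4:**
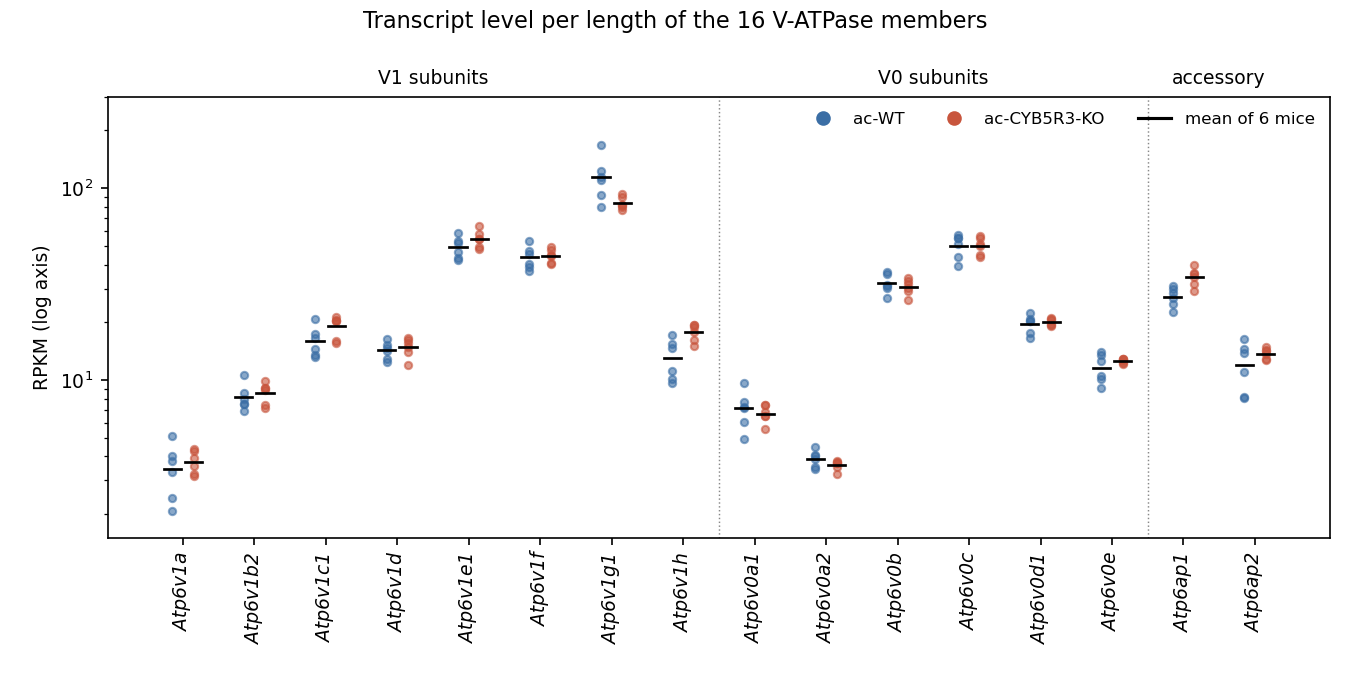
Points are the RPKM of the 16 V-ATPase genes in each mouse on a log axis, blue for ac-WT and red for ac-CYB5R3–KO, with the mean of 6 mice as a bar. Atp6v1g1 stands highest in both groups, at a mean of 114 RPKM in ac-WT and 84.0 RPKM in ac-CYB5R3–KO hearts.

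Of the 5 lysosomal membrane proteins, 4 had fold changes above 0 (median 0.20), and 1 was higher. This was Mcoln1 (chromosome 8, 3500457 to 3515232, plus strand), which encodes the calcium channel TRPML1, and whose promoter stretch above holds the motif at 2 places. In ac-WT hearts Mcoln1 ran from 9.52 to 11.3 CPM (median 10.8). In ac-CYB5R3–KO mice 1 to 6 it was at 11.8, 13.3, 14.9, 12.1, 11.3 and 11.9 CPM. The groups did not overlap, although the lowest ac-CYB5R3–KO and the highest ac-WT value both round to 11.3 CPM. Mcoln1 and Gabarapl1 were the 2 members (4.55%) without overlap, beside 1.55% of all genes tested. Mcoln1 differed by 0.24 on the log2 scale (SE 0.09, edgeR p = 0.0207, adjusted p = 0.260, exact permutation p = 0.00216, the smallest that 6 mice against 6 can give). Without ac-CYB5R3–KO mouse 3, its highest heart, the difference was 0.19 and the unadjusted p was no longer under 0.05.

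Lamp1, one of the abundant glycoproteins that line the lysosome and the member with 4 E-boxes, was at 132 to 280 CPM (median 213) in ac-WT and 218 to 315 CPM (median 258) in ac-CYB5R3–KO hearts. Values of ac-WT mice 2 and 3 (134 and 132 CPM) lay far below those of the other ac-WT mice, which began at 204 CPM. The log2 ratio of Lamp1 was 0.34 (SE 0.19, adjusted p = 0.424 by edgeR, exact permutation p = 0.0909). Without ac-WT mouse 6, its highest ac-WT heart, Lamp1 passed the unadjusted threshold, with a fold change of 0.45, whereas without ac-WT mice 2 and 3 it was at 0.12 and with 1 surrogate variable at 0.02, and passed in neither. Part of the Lamp1 exons (7.85%) overlaps Grtp1 on the opposite strand.

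Lamp2, the partner of Lamp1 that also takes part in fusion with autophagosomes, was at 75.7 to 164 CPM (median 126) in ac-WT and 117 to 159 CPM (median 137) in ac-CYB5R3–KO hearts. The ac-CYB5R3–KO values of Lamp2 lay inside the ac-WT range. Its log2 fold change was 0.20 (SE 0.18, edgeR adjusted p = 0.629, exact permutation p = 0.288), and -0.03 without ac-WT mice 2 and 3. Cd63, a tetraspanin of late endosomes, differed by 0.15 (SE 0.17, and -0.02 without ac-WT mice 2 and 3) and Npc1, which exports cholesterol from the lysosome, by -0.15 (SE 0.11).

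The cathepsins are the lysosomal proteases, and 7 of 9 had fold changes above 0 (median 0.14), with 1 lower and 0 higher at the threshold. Ctsd, the aspartic protease, was at 368 to 623 CPM (median 561) in ac-WT hearts and 543 to 684 CPM (median 579) in ac-CYB5R3–KO hearts. The lowest values of Ctsd were in ac-WT hearts, and the ranges overlapped (log2 fold change 0.22, SE 0.15, edgeR adjusted p = 0.503, exact permutation p = 0.130). Ctsb, a cysteine protease, ran from 357 to 1014 CPM (median 658) and from 626 to 821 CPM (median 762) in the same order. The ac-WT range of Ctsb enclosed the whole ac-CYB5R3–KO range, with ac-WT mice 1 to 3 at the low end. Its log2 fold change was 0.16 (SE 0.25, edgeR adjusted p = 0.787, exact permutation p = 0.335) and -0.11 without ac-WT mice 2 and 3. Of the Ctsb exons, 16.2% overlap Fdft1 on the opposite strand.

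Ctsf (chromosome 19, 4855129 to 4860912, plus strand), a cysteine cathepsin whose promoter stretch is printed above, was the lower one. It was at 14.0 to 24.3 CPM (median 17.6) in ac-WT hearts and 12.4 to 20.1 CPM (median 14.2) in ac-CYB5R3–KO hearts. The ranges overlapped widely, since ac-CYB5R3–KO mouse 2, at 20.1 CPM, lay above 4 of the 6 ac-WT mice. Ctsf differed by -0.32 on the log2 scale (SE 0.15, edgeR p = 0.0477, adjusted p = 0.336, exact permutation p = 0.0693). Its unadjusted p stayed under 0.05 in 7 of 21 alternatives.

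Over all 12 mice the largest fold change of any member was that of Ctsk, a collagen-degrading cathepsin, and it did not pass the threshold. Ctsk was at 6.71 and 7.88 CPM in ac-WT mice 2 and 3, between 21.1 and 31.2 CPM in ac-WT mice 1 and 4 to 6, and between 25.4 and 34.2 CPM in ac-CYB5R3–KO mice. Its log2 fold change was 0.55 (SE 0.33, edgeR adjusted p = 0.449, exact permutation p = 0.0606). It was 0.17 without ac-WT mice 2 and 3, and with 1 surrogate variable 0.02. Ctss, which macrophages express strongly, had a log2 fold change of 0.007 and the widest error of the list (SE 0.47). It was at 58.3, 30.3 and 31.1 CPM in ac-WT mice 1, 2 and 3 and at 202 to 214 CPM in ac-WT mice 4 to 6, and ac-CYB5R3–KO hearts lay between these groups of mice, at 85.7 to 173 CPM. Without ac-WT mice 2 and 3 the fold change of Ctss was -0.44, which did not pass the unadjusted threshold, and with 1 surrogate variable it was -0.64, which did. Ctsl differed by 0.34 (SE 0.21, edgeR adjusted p = 0.465, exact permutation p = 0.152), and Ctsa, Ctsh and Ctsz by 0.09, -0.05 and 0.14. Ctsl differed by 0.10, Ctsh by -0.25 and Ctsz by -0.12 without ac-WT mice 2 and 3.

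Of the 8 further enzymes and soluble proteins, 5 had fold changes above 0 (median 0.05) and 0 passed the threshold in either direction. Gaa, which breaks down glycogen in the lysosome, was at 57.3 to 76.8 CPM in ac-WT and 54.04 to 100.3 CPM in ac-CYB5R3–KO hearts (log2 fold change 0.16, SE 0.15). Psap, the precursor of the saposins that help degrade sphingolipids, was at 608 to 820 CPM in ac-WT hearts and 531 to 709 CPM in ac-CYB5R3–KO hearts (log2 fold change -0.17, SE 0.12). Gla, the alpha-galactosidase, had the lowest fold change of these, at -0.23 (SE 0.25), on the lowest counts of the list. Glb1, Hexa, Lipa and Npc2, which act on galactosides, gangliosides, lipid esters and cholesterol, ranged from 0.05 to 0.10, and the sialidase Neu1 was at -0.04 (SE 0.08). Without ac-WT mice 2 and 3, Hexa, Lipa and Npc2 were between -0.18 and -0.17 and Gla was at -0.47. Another identifier annotated as Glb1 lies inside the one used and shares 5.62% of its exon bases, so reads of Glb1 may have been divided.

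Tfeb (chromosome 17, 47873979 to 47929368, plus strand), the transcription factor that drives the lysosomal genes, was lower in ac-CYB5R3–KO hearts over all 12 mice. It was at 16.1 to 30.9 CPM (median 18.9) in ac-WT and 15.4 to 18.9 CPM (median 16.2) in ac-CYB5R3–KO hearts. The highest values were those of ac-WT mouse 2 (30.9 CPM) and ac-WT mouse 3 (23.3 CPM), and ac-CYB5R3–KO mouse 6, at 18.9 CPM, lay above 3 ac-WT mice. Tfeb differed by -0.35 on the log2 scale (SE 0.14, edgeR p = 0.0270, adjusted p = 0.274, exact permutation p = 0.0281). The difference was -0.12 without ac-WT mice 2 and 3 and -0.02 with total counts, and neither had an unadjusted p under 0.05. Tfeb also lost an unadjusted p under 0.05 when ac-WT mouse 2 (-0.20), ac-WT mouse 3 (-0.31) or ac-CYB5R3–KO mouse 1, 3 or 4 (-0.33 to -0.34) was left out alone.

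Tfe3, which binds the same element, was at 12.3 to 16.4 CPM (median 14.8) in ac-WT hearts and 12.1 to 16.7 CPM (median 14.7) in ac-CYB5R3–KO hearts. The 2 groups of Tfe3 values covered the same range (log2 fold change -0.02, SE 0.11, edgeR adjusted p = 0.956, exact permutation p = 0.870). Its sign turned in several alternatives and was positive (0.22) with total counts.

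The 3 autophagy genes all had fold changes above 0, and 2 were higher. Sqstm1 (chromosome 11, 50012868 to 50024329, minus strand) encodes p62, the receptor that ties ubiquitin-marked cargo to the forming autophagosome. It was at 149 to 275 CPM (median 231) in ac-WT and 271 to 376 CPM (median 298) in ac-CYB5R3–KO hearts. Only the lowest ac-CYB5R3–KO mice, mice 1 and 6 at 271 CPM, touched the ac-WT range, whose top was ac-WT mouse 4 at 275 CPM. Sqstm1 differed by 0.47 on the log2 scale (SE 0.16, edgeR p = 0.00956, adjusted p = 0.215, exact permutation p = 0.00866). Without ac-WT mice 2 and 3 the difference was 0.32 and still passed the unadjusted threshold, and with 1 surrogate variable it was 0.27 and did not. Of the Sqstm1 exons, 17.3% overlap 3010026O09Rik on the opposite strand, and reads there could belong to either gene.

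Gabarapl1 (chromosome 6, 129483218 to 129492349, plus strand), a member of the ATG8 family whose lipid-bound form sits in the autophagosome membrane, was higher in every ac-CYB5R3–KO heart than in any ac-WT heart. Gabarapl1 was at 32.3 to 44.7 CPM (median 40.9) in ac-WT and 45.3 to 73.1 CPM (median 49.2) in ac-CYB5R3–KO hearts. The gap between the groups was small, and ac-CYB5R3–KO mouse 2, at 73.1 CPM, stood highest. Its log2 difference was 0.40 (SE 0.13, edgeR p = 0.00792, adjusted p = 0.207, exact permutation p = 0.00216), and the unadjusted p stayed under 0.05 in all 21 alternatives.

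The other ATG8 genes did not pass. Map1lc3b, which encodes LC3B, was at 115 to 148 CPM (median 129) in ac-WT and 122 to 170 CPM (median 129) in ac-CYB5R3–KO hearts. The medians of Map1lc3b were equal at 3 digits, and its log2 fold change was 0.05 (SE 0.11, edgeR adjusted p = 0.841, exact permutation p = 0.649). From the longer list of autophagy genes, Gabarap differed by 0.0005 (SE 0.10), Gabarapl2 by 0.19 (SE 0.11) and Map1lc3a by -0.35 (SE 0.19), with exact permutation p of 0.933, 0.0563 and 0.177. These 3 were named after their values were seen. Whether Gabarapl1 differed from its relatives was not tested.

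Lyst (chromosome 13, 13682676 to 13869710, plus strand) encodes a very large protein that governs the size and traffic of lysosomes and is mutated in Chediak-Higashi syndrome. It had the lowest edgeR p of the list, while Mcoln1 and Gabarapl1 had a lower exact permutation p (0.00216). Lyst was at 5.10 to 8.07 CPM (median 6.92) in ac-WT hearts and 8.05 to 10.5 CPM (median 8.66) in ac-CYB5R3–KO hearts. The groups met at a single point, since ac-CYB5R3–KO mouse 2 (8.05 CPM) was just under ac-WT mouse 4 (8.07 CPM). Its log2 difference was 0.41 (SE 0.12, edgeR p = 0.00427, adjusted p = 0.188, exact permutation p = 0.00433). Lyst kept an unadjusted p under 0.05 in all 21 alternatives. DESeq2 gave it an adjusted p of 0.0434, in a fit that called 437 of 17847 genes after adjustment. No other member was called after adjustment in any alternative.

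**Figure D5:**
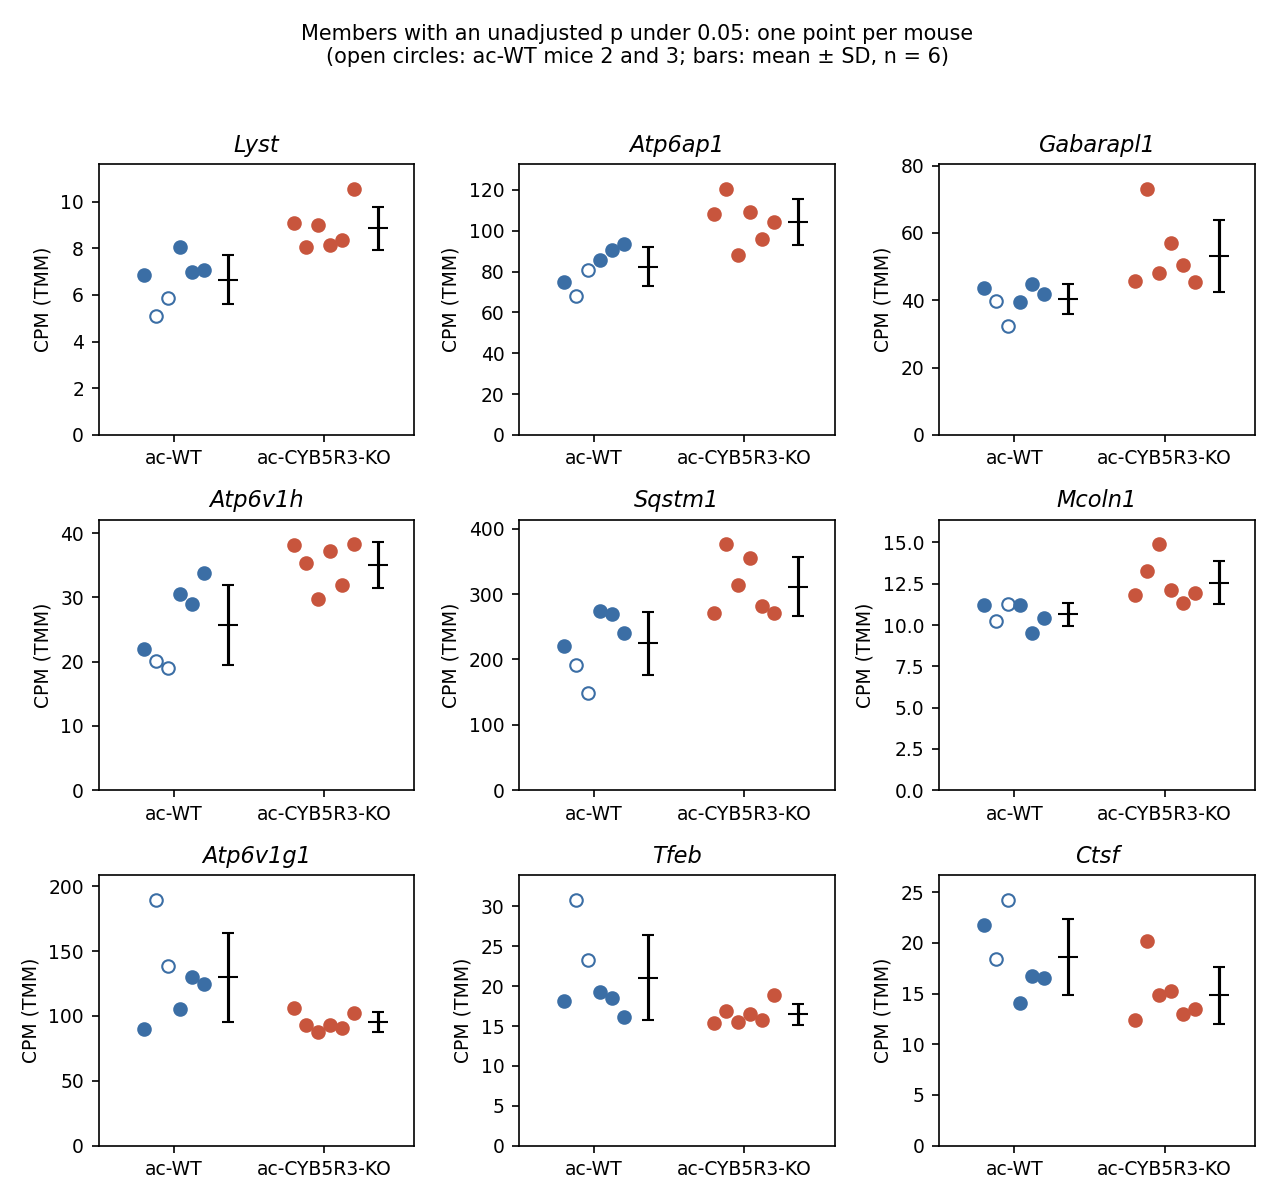
CPM of the 9 members with an unadjusted p under 0.05 is plotted for each mouse on axes that start at 0, with ac-WT mice 2 and 3 as open circles and the mean ± SD of each group as bars (n = 6). The open circles sit at the top of the ac-WT points for Atp6v1g1 (190 and 139 CPM) and Tfeb (30.9 and 23.3 CPM), and at the bottom for Lyst (5.10 and 5.86 CPM).

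A longer list of 125 other genes of the same pathways was examined in the same fit, and 121 of them were tested. Of these, 6 (4.96%) were higher and 4 (3.31%) lower at an unadjusted p under 0.05, shares that stand beside 4.91% and 9.73% of all genes, and 0 passed adjustment. Among the other V-ATPase genes 5 of 9 were tested and 1 was higher. This was Atp6v0a4, a V0 subunit best known from kidney and inner ear, at 0.140 to 1.99 CPM (median 1.27) in ac-WT hearts and 1.93 to 4.36 CPM (median 2.95) in ac-CYB5R3–KO hearts. The lowest ac-CYB5R3–KO value of Atp6v0a4 fell just under the highest ac-WT value, and its log2 fold change was 1.42 (SE 0.40, edgeR p = 0.00355, adjusted p = 0.184, exact permutation p = 0.00433). DESeq2, which called 437 genes after adjustment, gave Atp6v0a4 an adjusted p of 0.0277. Its level stayed low in both groups, at a mean of 0.218 RPKM in ac-WT hearts. Markers of cartilage and airway, tissues that lie beside the heart, summed to 4.41 to 41.2 CPM in ac-WT and 59.1 to 129 CPM in ac-CYB5R3–KO hearts, with 4 of 5 tested markers higher and 0 lower. The part of such tissue in Atp6v0a4 was not tested.

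The 30 other lysosomal hydrolases had 22 fold changes above 0 (median 0.10), with 0 higher and 1 lower. The 26 other membrane and sorting genes had 15 above 0 (median 0.03), with 2 higher and 0 lower. In the list of TFEB control and mTORC1 at the lysosome, 15 of 21 fold changes were below 0 (median -0.11), with 1 higher and 2 lower. The 39 other autophagy genes had 25 above 0 (median 0.03), with 2 higher and 1 lower. The genes shown from these counts were named after their values were seen. The lower hydrolase was Idua, with a log2 fold change of -0.48 (SE 0.19). Among the membrane and sorting genes Igf2r, the receptor that carries newly made hydrolases to the lysosome, was higher by 0.43 on the log2 scale (SE 0.15).

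Around TFEB and mTORC1, Rraga, a GTPase that brings mTORC1 to the lysosome, was higher by 0.29 (SE 0.11) on the log2 scale. Fnip2, a partner of folliculin, had a log2 fold change of -0.36 (SE 0.14), and Mitf, a relative of Tfeb, one of -0.38 (SE 0.17). Among the autophagy genes the protease Atg4a, at 0.25 (SE 0.10), and Atg12, at 0.17 (SE 0.08), were higher, and Atg4d, another protease of the family, was lower at -0.41 (SE 0.17). The edgeR adjusted p of these 8 genes lay between 0.231 and 0.341.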

How the data were processed

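Whole-heart total RNA (TruSeq Stranded Total RNA, 75 bp unpaired reads) was sequenced. The authors deposited raw counts, a whole number of reads per Ensembl gene and library, with no normalization. The study's methods describe trimming with fastq-mcf and Trimmomatic and STAR mapping to mm9, with FPKM from Cufflinks, whereas the submitters' processing notes name STAR, featureCounts and GRCm39. Which build underlies the counts is therefore unsettled, and the strand setting and annotation are not given in the sources used here. Gene positions and exon lengths came from the GENCODE annotation of NCBIM37 and promoter windows from RefSeq (GRCm38.p6).

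Columns were assigned to groups by sample labels, and 0 were left unused. Replicates are different mice. Symbols were found for 31027 of 53700 identifiers, and Tfeb and Tfe3 were matched through older symbols. Counts were filtered (filterByExpr, minimum count 10), scaled by TMM and tested by edgeR's quasi-likelihood test (version 4.0.16, R 4.3.3), two-sided, without covariates, with Benjamini-Hochberg adjustment over 17847 genes. Cuffdiff, used in the study, needs reads. Two-sided exact permutation tests used log2(CPM + 1) and all splits of the 12 mice. Total counts were between 43393183 and 53754284, and without molecular identifiers reads cannot be taken as independent molecules. Reduced chi-square between libraries of a group was at least 32.6, far above sampling noise, so no library repeated another of its group. Libraries of different groups were not compared in this way.

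The members, gene lists, thresholds and alternatives were chosen with earlier results of these data known. Values by mouse are given for members with an unadjusted p under 0.05 and for Lamp1, Lamp2, Ctsd, Ctsb, Tfeb, Tfe3, Sqstm1, Map1lc3b, Gabarapl1, Atp6v1a, Atp6v0c and Mcoln1, and, of the longer list, for genes with an unadjusted p under 0.01. Other genes shown by value were chosen after their values were seen. A gene of the longer list is not reported here. Alternatives were DESeq2 (1.42.0), limma-voom (limma 3.58.1), total counts, median-of-ratios size factors, no filter, at least 10 counts in every library, a replicate block, 1 surrogate variable (sva 3.50.0), leaving out each mouse, and leaving out ac-WT mice 2 and 3 together. Markers matched for 77 of 80 genes. The tests were checked on simulated counts.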

Additional observations from a re-analysis of the deposited data

Results flagged for a closer look

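Ctsf in ac-CYB5R3–KO mouse 2 was at 20.1 CPM, while the other 5 ac-CYB5R3–KO mice lay between 12.4 and 15.3 CPM. The gap to its nearest neighbour took 0.631 of the range of the group, just past the critical ratio of 0.625 for 6 samples. It was the 1 sample apart among 88 groups of mice examined (44 members in 2 groups), and chance places about 1 in 20 groups past that ratio. Without this mouse the log2 fold change of Ctsf was -0.43.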

How the results depend on the processing

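Of the members, DESeq2 called 1 after adjustment (Lyst), and every other alternative called 0. The number of higher members was 4 with 1 surrogate variable, beside 2.66% of all genes, and 6 to 8 in the other alternatives. With DESeq2 1022 of 17847 genes were higher. In the remaining alternatives the share of all genes ran from 3.44% (without ac-WT mice 2 and 3) to 9.45% (total counts). The number of lower members was 0 with total counts, beside 2.06% of all genes. It was 7 with 1 surrogate variable (Ctsh, Ctss, Gla, Hexa, Lipa, Npc2 and Psap), beside 5.19%. Without ac-WT mice 2 and 3 it was 1, beside 4.54%, and when each mouse was left out 1 to 3, beside 6.17% to 11.6%. The median fold change of the members was 0.31 with total counts, where all genes together had a median of 0.26 in place of -0.01 and the members lay 0.05 above it. It was -0.04 with 1 surrogate variable and 0.04 to 0.16 when each mouse was left out. Of all genes with an unadjusted p under 0.05, 33.6% were higher, and 82.1% with total counts. All genes called after adjustment numbered 437 with DESeq2, 35 without a filter, 8 with total counts or median-of-ratios size factors, 3 with 1 surrogate variable, and 2 with limma-voom or the replicate block. The sign of Tfe3 turned with total counts (0.22), without a filter (0.0056) and when single mice were left out (-0.058 to 0.034). With 1 surrogate variable 17 of the 44 signs turned, among them Lamp2 (-0.12), Ctsb (-0.24), Atp6v1a (-0.20) and Atp6v0c (-0.037). Without ac-WT mice 2 and 3, 15 turned, among them Lamp2 (-0.028), Ctsb (-0.11) and Atp6v1a (-0.094). When single mice were left out, Atp6v0c ran from -0.057 to 0.056 and Map1lc3b from -0.019 to 0.089. The causes were not tested. Atp6v0a4 does not reach 10 counts in every library and has no value under that filter.

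Mice with the same replicate number are different animals. Their deviations from the group means correlated at 0.133 on average (-0.160 to 0.360, 6 pairs), against -0.0255 for other pairs (-0.365 to 0.329, 30 pairs). Of 6 mice, 3 correlated best with their own number. Whether mice of the same number shared a handling step was not tested. With the replicate block, 6 members were higher, beside 6.02% of all genes, and 2 lower, beside 8.68%. Ctsf then had an unadjusted edgeR p of 0.0523.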
